A study of Rattus norvegicus with 20 samples.

Results

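The genes described here are 104 of the 32623 Ensembl gene IDs in a count table of cultured rat neural stem cells, chosen by their own levels: higher after 5 d without a stimulus than at 0 d, and lower when the GSK-3 inhibitor CHIR99021 was present for 3 d or 5 d. The level used was log2(CPM + 1), where CPM is the reads of a gene divided by all reads of its library, times 1000000. A gene was kept when both unstimulated 5 d libraries had a level of at least 3, each of them lay at least 1.5 above each 0 d library, and both CHIR99021 libraries, 3 d ON and 5 d ON, lay at least 1 below each of them. Of the 7705 IDs with a level of 3 or more in both unstimulated 5 d libraries, 274 met the limit on the increase, and 166 of these did not meet the limit on CHIR99021. The remaining 108 included 4 IDs that were left out by name, which gave 104. Because the genes were selected on the unstimulated 0 d and 5 d libraries and on CHIR99021 3 d ON and 5 d ON, their values in those 6 libraries are a description with no test. The other 14 libraries played no part in the choice. The files pair no ID with a gene symbol, so neither the roles of the genes nor markers of the labelled cell type could be looked up, and the genes are named by ID.

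The cells were adult hippocampal neural stem cells of the Fisher 344 strain, sequenced as 20 bulk 3'-end libraries of total RNA. Unstimulated libraries came from wild-type and from optoWnt cells at 0 d, 3 d and 5 d, and every stimulated library came from optoWnt cells, whichever stimulus was used. CHIR99021 and Wnt3a protein (100 ng/mL) were each sequenced at 1 d, 3 d and 5 d ON, and in a withdrawal series of 1 d ON and then 1 d or 2 d OFF. Light had the same profiles except 5 d ON, which was not analysed here. The optoWnt cells carried a transduced transgene and had been selected with puromycin, and the labels give neither its promoter nor the number of clones. Stimulation took place in a basal medium with 0.5% FBS. The labels do not say in which medium the 0 d cells were collected, nor whether unstimulated 3 d and 5 d cultures, whose titles carry the word ON, were lit. Each combination of cells, stimulus and time was sequenced as 1 library. In bulk RNA, fewer cells of a type and less RNA per cell cannot be told apart.

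Wnt ligands bind Frizzled and LRP5/6 receptors at the cell surface, and receptor clustering inhibits the destruction complex in which GSK-3 marks β-catenin for degradation. Stabilised β-catenin enters the nucleus and acts with TCF/LEF factors on target genes. Wnt3a enters the pathway at the receptor, optoWnt is a light-clustered fusion of the LRP6 tail, and CHIR99021 enters it at GSK-3, a kinase with many substrates outside the Wnt pathway. In the adult hippocampus, neural stem cells give rise mainly to neurons and astrocytes, and in culture they leave the cell cycle and turn on genes of differentiated cells when growth factor is withdrawn or serum is added.

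Library totals ran from 696463 reads (Wnt3a 1 d ON) to 5935681 reads (optoWnt 3 d). A count of 0 allowed a level of up to 4.31 CPM in the first and 0.505 CPM in the second, the level of 3 counts. In the Wnt3a 1 d ON library 26 of the 104 genes had fewer than 10 reads. Across 11976 genes, 6 libraries stood apart from the other 14 on the first principal component, which held 31.25% of the variance. Among unstimulated cells these were the wild-type libraries at 0 d and 5 d. Under continued stimulation they were Wnt3a at 5 d and light at 3 d, and after 2 d OFF they were the Wnt3a and CHIR99021 libraries. They scored -37.3 or lower, against 8.47 or higher in the others. These 6 low-scoring libraries carry an asterisk in the plots, and results that rest on them are also given without them.

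Without a stimulus, the median level of the 104 genes was 2.54 in wild-type and 2.97 in optoWnt cells at 0 d. At 5 d it was 6.31 in wild-type and 6.14 in optoWnt cells. The median increase from the mean of 0 d to the mean of 5 d was 3.24 on the log2 scale (range 1.73 to 6.93). Mean levels at 5 d spanned 7.76 to 1522 CPM, with a median of 69.9 CPM. Together the genes summed to 2033 and 2503 CPM at 0 d in wild-type and optoWnt cells, and 20193 and 18095 at 5 d. The genes thus ranged widely in abundance, and as a set they took a larger share of the reads at 5 d in both kinds of cells.

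With CHIR99021 present throughout, the median level was 4.27 at 1 d, 3.83 at 3 d and 3.59 at 5 d. Relative to unstimulated 5 d, the mean of the 3 d ON and 5 d ON libraries was lower by a median of 2.56 on the log2 scale, a difference the choice of genes required. Relative to 0 d, their mean under CHIR99021 was higher in 76 genes and lower in 27, with a median difference of 0.64. Over all genes in the background described below, 53.4% were higher and 46.4% lower. It was at least 1 above in 32 genes and at least 1 below in 8. All of these libraries served to choose the genes, so nothing is read from these counts.

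**Figure D1:**
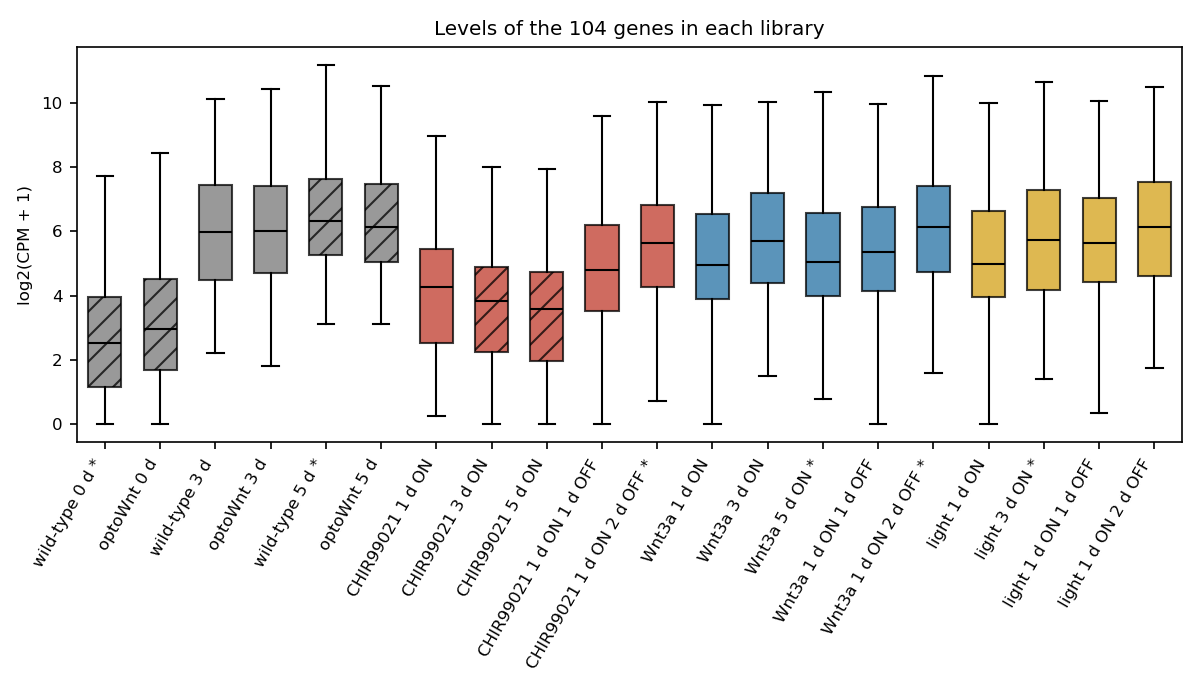
Level of the 104 genes, as log2(CPM + 1), in each of the 20 libraries. The line in a box is the median, the box spans the quartiles and the whiskers the lowest and highest gene. Hatched boxes are the 6 libraries that served to choose the genes, and asterisks mark the 6 low-scoring libraries. The CHIR99021 ON medians lie between 3.59 and 4.27, and the Wnt3a and light medians between 4.96 and 6.13.

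The genes just inside and just outside the limits differed little. ENSRNOG00000012561 was kept with a smallest 5 d to 0 d difference of 1.51, and ENSRNOG00000015225 was left out with 1.49. ENSRNOG00000002256 and ENSRNOG00000017212 were each kept with a smallest CHIR99021 difference of 1.025 on the log2 scale. ENSRNOG00000010263 and ENSRNOG00000059166 were left out because their lower 5 d level was 2.999. Over all 104 genes the smallest increase had a median of 2.59 (1.51 to 6.20), and the smallest CHIR99021 difference a median of 2.03 (1.025 to 7.96), so most genes did not sit at a limit.

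The 2 genes with the highest CPM at 5 d followed different courses. ENSRNOG00000020497 had 131 CPM in wild-type and 108 CPM in optoWnt cells at 0 d, 574 and 485 CPM at 3 d, and 2297 and 748 CPM at 5 d. Under CHIR99021 it stayed between 234 and 254 CPM at 1 d, 3 d and 5 d ON, above both 0 d libraries. ENSRNOG00000055089 had 209 and 343 CPM at 0 d and 1099 CPM (wild-type) and 1381 CPM (optoWnt) at 3 d, close to its 5 d levels of 1095 and 1473 CPM. Under CHIR99021 its level was 405 CPM at 1 d, 201 CPM at 3 d and 227 CPM at 5 d. The first gene thus still differed between 3 d and 5 d, most of all in wild-type cells, and the second was near its 5 d level by 3 d. After 1 d ON, ENSRNOG00000020497 was at 167 CPM under Wnt3a and 203 CPM under light, little above 0 d, while ENSRNOG00000055089 was already at 963 and 1023 CPM. After 1 d ON and 2 d OFF, ENSRNOG00000055089 was at 722 CPM for CHIR99021, 808 CPM for Wnt3a and 1428 CPM for light. ENSRNOG00000020497 was at 305 CPM, 674 CPM and 466 CPM in the same order, lowest after CHIR99021. At 1 d ON, however, this gene was highest under CHIR99021, at 234 CPM. After 1 d OFF its 269 CPM for CHIR99021 lay between 187 CPM for Wnt3a and 322 CPM for light.

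The unstimulated 3 d libraries, which played no part in the choice, already held most of the increase. Both lay at least 1 above both 0 d libraries for 100 of the 104 genes, against 4.11% of the 13222 genes with at least 1 CPM in 4 or more libraries, called all genes below, among which the 104 are counted. These comparisons share the 0 d libraries with the choice of genes, which were taken as low there. The count is thus partly fixed by the choice, and the share of all genes is no matched background. The percent scale that follows has both of its ends in libraries that served to choose the genes. Set on a scale where the mean of 0 d is 0% and the mean of 5 d is 100%, the median gene stood at 88.5% in wild-type and 91.9% in optoWnt cells at 3 d. The absolute difference between wild-type and optoWnt cells had a median of 0.52 at 0 d, 0.35 at 3 d and 0.49 at 5 d. The only view of the spread between unstimulated libraries of 1 time point is this pair, which also differs in genotype.

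The 1 d ON libraries were also set against 0 d. Because the genes were chosen as low at 0 d, their counts here are partly fixed by the choice. The shares of all genes, which were not chosen so, are no matched background for them. Wnt3a and light 1 d ON were both at least 1 above both 0 d libraries for 73 of 104 genes, against 4.15% of all genes. CHIR99021 1 d ON reached the same margin for 36 of 104, against 4.42% of all genes. On the percent scale the median gene stood at 64.5% under Wnt3a and 69.5% under light at 1 d, and at 32.0% under CHIR99021. The Wnt3a and light counts need both libraries to pass and the CHIR99021 count needs 1, so the counts are not matched.

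**Figure D2:**
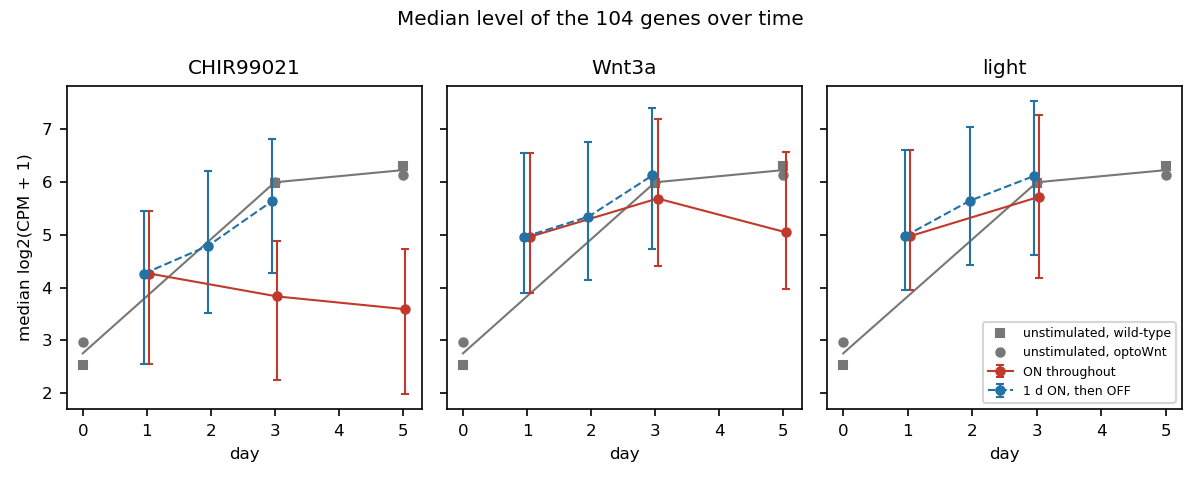
Median level of the 104 genes, as log2(CPM + 1), against day for CHIR99021, Wnt3a and light. Bars span the quartiles over genes, not replicates. Red points had the stimulus ON throughout, blue points 1 d ON and then OFF, and the grey line joins the means of the unstimulated libraries. Under CHIR99021 the ON medians go from 4.27 to 3.59, and the withdrawn ones reach 5.64 at day 3.

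CHIR99021 was next compared with the other stimuli at the 3 profiles that all share and that the choice of genes did not use. After 1 d ON, the level under CHIR99021 minus the mean of Wnt3a and light had a median of -1.11, and it was below 0 in 89 of 104 genes, against 47.1% of all genes. After 1 d ON and 1 d OFF the median was -0.49, with 94 of 104 genes below 0 against 51.6% of all genes. After 1 d ON and 2 d OFF it was -0.54, with 86 of 104 below 0 against 46.0%. The gap was therefore widest while CHIR99021 was present, and it was smaller but in the same direction in most genes after withdrawal.

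CHIR99021 lay below both other stimuli at all 3 profiles for 35 of the 104 genes, against 2.14% of all genes. It lay above both at all 3 for 0 of them, against 3.23%. At 1 d ON and at 1 d ON 1 d OFF, which include none of the low-scoring libraries, it lay below both for 62 of 104 genes, against 9.4%. The genes share the libraries, so these counts describe 9 libraries and not independent repeats.

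The test across all genes did not call any of them. In edgeR's quasi-likelihood fit of these 9 libraries, with profile as a term and 4 residual degrees of freedom, 0 of the 103 genes that passed the low-count filter had an adjusted p under 0.05, against 0.0% of 11238 genes called lower. The smallest adjusted p among the 103 was 0.126. Of all 11238 genes tested, 3 were called, each higher under CHIR99021. The estimates leaned one way: 99 of 103 were negative, against 50.9% of all genes tested. Their median log2 fold change was -0.69 (-2.30 to 0.73), against a median of -0.01 over all genes tested. At an unadjusted p under 0.05, 48 of 103 were lower and 0 were higher, against 2.11% of all genes lower. DESeq2 called 8 of 103 lower, against 0.436% of all genes called in either direction, and edgeR called 4 lower without the low-scoring libraries, against 0.221%. Without CHIR99021 1 d ON the unadjusted count was 22. The gene not tested was ENSRNOG00000006200. It had 26 reads in light 1 d ON 2 d OFF, 7 in Wnt3a 1 d ON 2 d OFF and fewer in the other libraries of this fit.

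**Figure D3:**
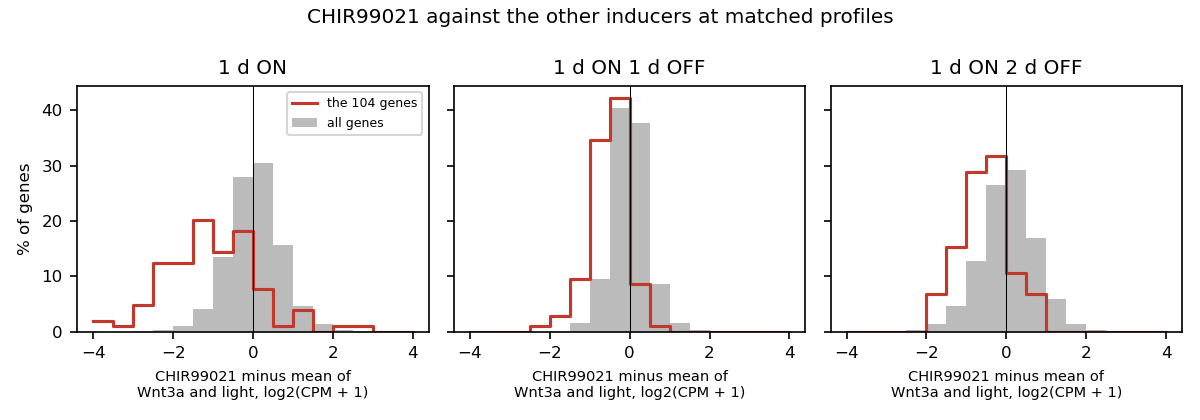
Share of genes (percent) by the level under CHIR99021 minus the mean of Wnt3a and light, in log2(CPM + 1), at the 3 matched profiles. The red line shows the 104 genes and the grey bars all genes. The medians of the 104 genes are -1.11, -0.49 and -0.54, and those of all genes 0.04, -0.01 and 0.06.

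Among the 104 genes, ENSRNOG00000017725 and ENSRNOG00000030515 had the smallest adjusted p in this fit, and were named for it after the values were seen. ENSRNOG00000017725 had 30.6 CPM under CHIR99021 1 d ON, 421 CPM under Wnt3a and 403 CPM under light. After 1 d OFF it had 141 CPM, 291 CPM and 632 CPM in the same order, and after 2 d OFF 254 CPM, 910 CPM and 823 CPM. CHIR99021 was the lowest of the 3 stimuli each time. Its log2 fold change was -2.30 (SE 0.43, edgeR adjusted p = 0.126), and the adjusted p passed 0.05 in 4 of 13 alternatives, DESeq2 among them. It also had the largest CHIR99021 difference of the 104 genes: 2.49 CPM at 3 d ON and 2.93 CPM at 5 d ON, below its 0 d levels of 55.1 CPM (wild-type) and 29.0 CPM (optoWnt).

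ENSRNOG00000030515 had 44.3 CPM under CHIR99021 1 d ON against 218 CPM under Wnt3a and 168 CPM under light. Its levels after 1 d OFF were 131 CPM, 240 CPM and 271 CPM, and after 2 d OFF 109 CPM, 278 CPM and 410 CPM. CHIR99021 was again the lowest at each profile, and its level did not move between 1 d, 3 d and 5 d ON (44.3, 44.1 and 42.8 CPM). The log2 fold change was -1.56 (SE 0.31, edgeR adjusted p = 0.153), and the adjusted p passed 0.05 in 3 of 13 alternatives, DESeq2 among them.

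Withdrawal of CHIR99021 was followed by higher levels of most of the genes. From 1 d ON to 1 d OFF the level differed by a median of 0.84, with 83 of 104 genes higher, against 46.9% of all genes. From 1 d ON to 2 d OFF the median was 1.15, with 93 of 104 genes higher, and 64 of 104 were at least 1 higher, against 11.6% of all genes. The 2 d OFF library is one of the low-scoring ones, and the 1 d OFF and 1 d ON libraries are not. On the percent scale the median gene moved from 32.0% at 1 d ON to 57.5% after 1 d OFF and 78.4% after 2 d OFF. At the same day 3 the median gene stood at 22.6% in cells kept in CHIR99021. The withdrawn library was higher by a median of 1.88, in 98 of 104 genes, against 51.4% of all genes. That comparison uses a library that served to choose the genes.

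After 2 d OFF the genes had not all reached the unstimulated 3 d level. The median difference from the mean of unstimulated 3 d was -0.42, and 22 of 104 genes were at least 1 below both unstimulated 3 d libraries, against 6.35% of all genes. The same count was 10 of 104 for Wnt3a (9.1% of all genes) and 5 of 104 for light (5.01%), near the background for both. The difference between these counts was not tested.

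ENSRNOG00000003171 had the largest gain after CHIR99021 withdrawal and ENSRNOG00000002256 the largest drop, and both were picked after their values were seen. ENSRNOG00000003171 had 0.78 CPM at 1 d ON (4 reads), 54.6 CPM after 1 d OFF and 124 CPM after 2 d OFF, a difference of 6.13 on the log2 scale. With CHIR99021 kept on it had 4.53 CPM at 3 d and 10.1 CPM at 5 d, against 220 and 175 CPM in unstimulated cells at 3 d. ENSRNOG00000002256 had 14.8 CPM at 1 d ON, 19.7 CPM after 1 d OFF and 3.36 CPM after 2 d OFF. That gene was also low in other low-scoring libraries: 2.89 CPM under light 3 d ON, 1.86 CPM under Wnt3a 5 d ON and 4.59 CPM under Wnt3a 1 d ON 2 d OFF, against 24.5 CPM under Wnt3a 3 d ON. The part that the split between libraries plays in its values was not tested.

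**Figure D4:**
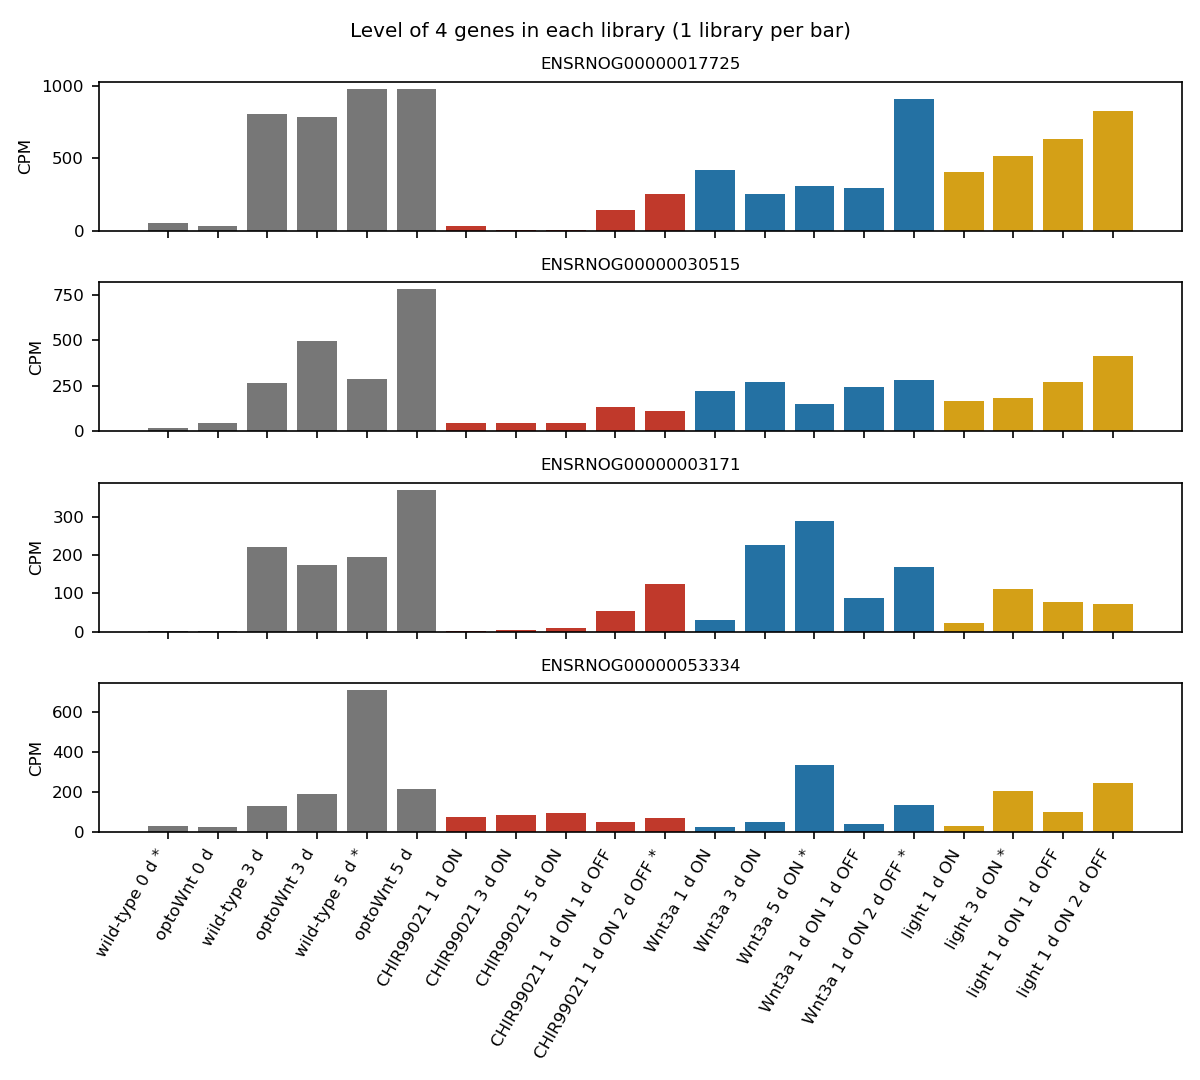
Level of 4 of the genes in CPM, with 1 bar per library and asterisks on the 6 low-scoring libraries. Grey bars are unstimulated, red CHIR99021, blue Wnt3a and yellow light. ENSRNOG00000017725, ENSRNOG00000030515 and ENSRNOG00000003171 are lowest among stimulated cells in the CHIR99021 ON libraries, and ENSRNOG00000053334 is not.

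With Wnt3a or light kept on, the median level went from 4.96 at 1 d to 5.69 at 3 d under Wnt3a and from 4.98 to 5.72 under light. The median gene stood at 82.6% under Wnt3a and 79.9% under light at 3 d ON. Relative to the mean of unstimulated 3 d, the median difference was -0.23 under Wnt3a and -0.23 under light, with 66 of 104 genes below 0 in each. Over all genes 41.7% were below 0 under Wnt3a and 51.1% under light, so the equal counts stand against different backgrounds. For Wnt3a 6 of 104 genes were at least 1 below both unstimulated 3 d libraries, against 0.93% of all genes. For light it was 14 of 104, against 8.44%, and light 3 d ON is one of the low-scoring libraries. At 3 d ON the median gene was thus 0.23 below the unstimulated level under either stimulus, each read from 1 library. Whether the levels are equal was not tested.

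The test of 3 d ON (Wnt3a and light) against unstimulated 3 d called 0 of 104 genes, against 0.00865% of the 11567 genes tested (edgeR, 4 residual degrees of freedom). The median log2 fold change was -0.33, negative in 79 of 104, against 48.8% of all genes tested. At an unadjusted p under 0.05 the count was 0 in edgeR, against 1.01% of all genes, and DESeq2 called 0. Without the low-scoring libraries the median was -0.36, with Wnt3a as the only library left in the 3 d ON arm. In the full fit each arm had 2 libraries, and the biological coefficient of variation was 0.465.

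At 5 d ON, under Wnt3a alone, the median level was 5.05, below the 5.69 of Wnt3a 3 d ON. Of the 104 genes, 45 were at least 1 below both unstimulated 5 d libraries, against 9.93% of all genes. Because the genes were chosen as high in those 5 d libraries, this count is partly fixed by the choice. The share of all genes is no matched background for it. Compared with Wnt3a 3 d ON, 38 of 104 were at least 1 lower, against 29.3% of all genes, and 17 were at least 1 higher, against 17.4%. Both shares are near those of all genes. Wnt3a 5 d ON had the lowest first component score of the 20 libraries, and the part this plays in the step from 3 d to 5 d ON was not tested.

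ENSRNOG00000019120 and ENSRNOG00000055721 differed most downward between Wnt3a 3 d ON and 5 d ON, and the genes of this step were also picked after their values were seen. ENSRNOG00000019120 had 497 CPM at 1 d, 295 CPM at 3 d and 24.9 CPM at 5 d ON, a difference of -3.52 from 3 d to 5 d. ENSRNOG00000055721 had 24.4 CPM, 45.7 CPM and 3.34 CPM in the same order. In wild-type cells, whose 5 d library is also low-scoring, the first was at 389 CPM at 3 d and 58.2 CPM at 5 d, while in optoWnt cells it was at 438 and 272 CPM. In the upward direction, ENSRNOG00000053334 had 49.7 CPM at 3 d and 336 CPM at 5 d ON, and ENSRNOG00000010326 had 5.03 and 33.1 CPM. Both were also far higher in the wild-type 5 d library (705 and 107 CPM) than in the optoWnt 5 d library (217 and 9.58 CPM).

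A trend over days was fitted to the 9 Wnt3a and light libraries, none of which entered the choice. Libraries kept ON and withdrawn libraries were pooled, with no term for withdrawal. Day 2 had withdrawn libraries only, day 3 had both kinds, and day 5 was Wnt3a ON alone. Change per day and withdrawal therefore cannot be fully told apart in this fit. With stimulus as a term and 6 residual degrees of freedom, edgeR called 2 of 103 genes higher with time, against 0.0843% of 10680 genes, and 0 lower, against 0.0655%. At an unadjusted p under 0.05, 30 of 103 were higher, against 12.1% of all genes, and 5 were lower, against 11.7%. The median change was 0.17 per day on the log2 scale, positive in 73 of 103 genes, against 51.3% of all genes tested. That median was 0.38 without Wnt3a 5 d ON, 0.34 without the low-scoring libraries and 0.09 without light 1 d ON. DESeq2 called 16 higher and 3 lower, against 10.3% of all genes called in either direction. The call rate depended on single libraries, for all genes as well as for these: edgeR called 0 without Wnt3a 1 d ON, without Wnt3a 5 d ON or without Wnt3a 1 d ON 1 d OFF. It called 12 without Wnt3a 3 d ON, where 6.57% of all genes were called.

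The called genes were ENSRNOG00000053334 (1.08 per day, SE 0.15, edgeR adjusted p = 0.0166) and ENSRNOG00000013916 (0.89 per day, SE 0.16, edgeR adjusted p = 0.0491). Without the low-scoring libraries neither passed, with adjusted p = 0.102 and 0.243 in edgeR. ENSRNOG00000053334 had 27.3 CPM under Wnt3a 1 d ON and 33.8 CPM under light 1 d ON, and 137 CPM and 246 CPM after 2 d OFF. ENSRNOG00000013916 had 4.31 and 4.36 CPM at 1 d ON, and 34.4 and 15.3 CPM after 2 d OFF. Under CHIR99021 1 d ON both were higher than under the other stimuli, at 75.9 CPM and 29.3 CPM, unlike most of the 104 genes. For ENSRNOG00000013916 that gap, 2.50 on the log2 scale, was the largest upward one of the set at 1 d ON, and the gene was singled out for it after its values were seen.

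After 1 d of Wnt3a or light and 2 d OFF, the median gene stood at 89.9% and 91.6%, and after 1 d OFF at 76.5% and 81.3%. Genes at least 1 higher after 2 d OFF than at 1 d ON numbered 46 of 104 for Wnt3a, against 21.5% of all genes, and 47 of 104 for light, against 7.67%. For Wnt3a both ends of that step have limits, since 1 d ON is the shallowest library and 2 d OFF is low-scoring. The light libraries at 1 d ON and 2 d OFF are neither. Relative to the mean of unstimulated 3 d, the median difference after 2 d OFF was 0.18 for Wnt3a and 0.11 for light.

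Withdrawal over the 3 stimuli was tested at day 3. Against unstimulated 3 d, edgeR called 0 of 104 genes, against 0.0% of 11567 genes. The median log2 fold change was -0.01, and the smallest adjusted p was 0.997. An unadjusted p under 0.05 was found for 1 gene, against 2.35% of all genes. Without light 1 d ON 2 d OFF the edgeR median was -0.17, and 0 genes were called. At an unadjusted p, 16 genes were then lower, against 9.7% of all genes, and 4 were higher. Without CHIR99021 1 d ON 2 d OFF the median was 0.14, and without Wnt3a 1 d ON 2 d OFF it was -0.10. DESeq2, fitted with no library left out, called 0. Against 3 d ON with Wnt3a or light, edgeR called 0 of 104, against 0.00865%, with a median of 0.30. Of the 104 estimates 78 were positive, against 51% of all genes tested. At an unadjusted p under 0.05, 2 genes were higher and 0 lower, against 2.51% of all genes in either direction, and DESeq2 called 0. That median was 0.11 without light 1 d ON 2 d OFF, 0.48 without CHIR99021 1 d ON 2 d OFF and 0.52 without the low-scoring libraries. Leaving out the low-scoring libraries left light alone in the withdrawn arm and Wnt3a alone in the 3 d ON arm. Withdrawal and stimulus cannot be told apart there. Against unstimulated 3 d the median without the low-scoring libraries was 0.11. Both tests share the withdrawn libraries, and the full withdrawn arm holds CHIR99021 while the 3 d ON arm does not.

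Light was compared with Wnt3a over the 4 profiles both have. In edgeR's fit with profile as a term and 3 residual degrees of freedom, 0 of 102 genes were called, against 0.0% of 10540 genes. The median log2 fold change was 0.11 (-1.01 to 1.19), and the smallest adjusted p among them was 0.71. At an unadjusted p under 0.05 the count was 5, against 6.85% of all genes. Of the 5, 4 were higher under light, and of all genes tested 440 were higher and 282 lower. DESeq2 gave an adjusted p to 52 of the genes and called 0. The largest estimate was that of ENSRNOG00000053334 (1.19, SE 0.36, edgeR adjusted p = 0.71), whose levels under light and Wnt3a were 206 and 49.7 CPM at 3 d ON, and 33.8 and 27.3 CPM at 1 d ON. A miss of the threshold with this few libraries does not show that the 2 stimuli act alike.

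At 1 d ON under Wnt3a and light, the genes lay at unlike distances from their unstimulated 3 d level. They were split, after the data were seen and with no test, by the level at 1 d ON under Wnt3a and light against the mean of unstimulated 3 d. In 54 genes both libraries were less than 1 below it, or above it, and these are called early. In 26 genes both were at least 1 below it, called late, and in the other 24 the stimuli differed. Any such cut gives groups, and Wnt3a 1 d ON is the shallowest library. Unstimulated cells were not sequenced at 1 d. Later timing and a lower level under the stimulus therefore cannot be told apart, and the names stand for the split only. Without a stimulus, the early genes differed between 3 d and 5 d by a median of 0.19, and the late genes by 1.11.

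Under CHIR99021 1 d ON, the early genes were lower than under the other stimuli by a median of 1.25 on the log2 scale (a difference of -1.25), with 51 of 54 below 0. The late genes had a median difference of -0.12, with 16 of 26 below 0. After 1 d OFF the medians were -0.39 and -0.66, and after 2 d OFF -0.57 and -0.47. The split itself made the late genes low under Wnt3a and light at 1 d, so that contrast at 1 d ON is part of how the groups were defined. From CHIR99021 1 d ON to 2 d OFF, the early genes differed by a median of 1.02 and the late genes by 2.06. Between Wnt3a 3 d and 5 d ON, 26 of the 54 early genes were at least 1 lower and 6 at least 1 higher, against 3 and 7 of the 26 late genes. Over all genes 29.3% were at least 1 lower and 17.4% at least 1 higher in that step, and Wnt3a 5 d ON has the lowest first component score. The difference between early and late genes was not tested, nor was the part that this library plays in it.

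**Figure D5:**
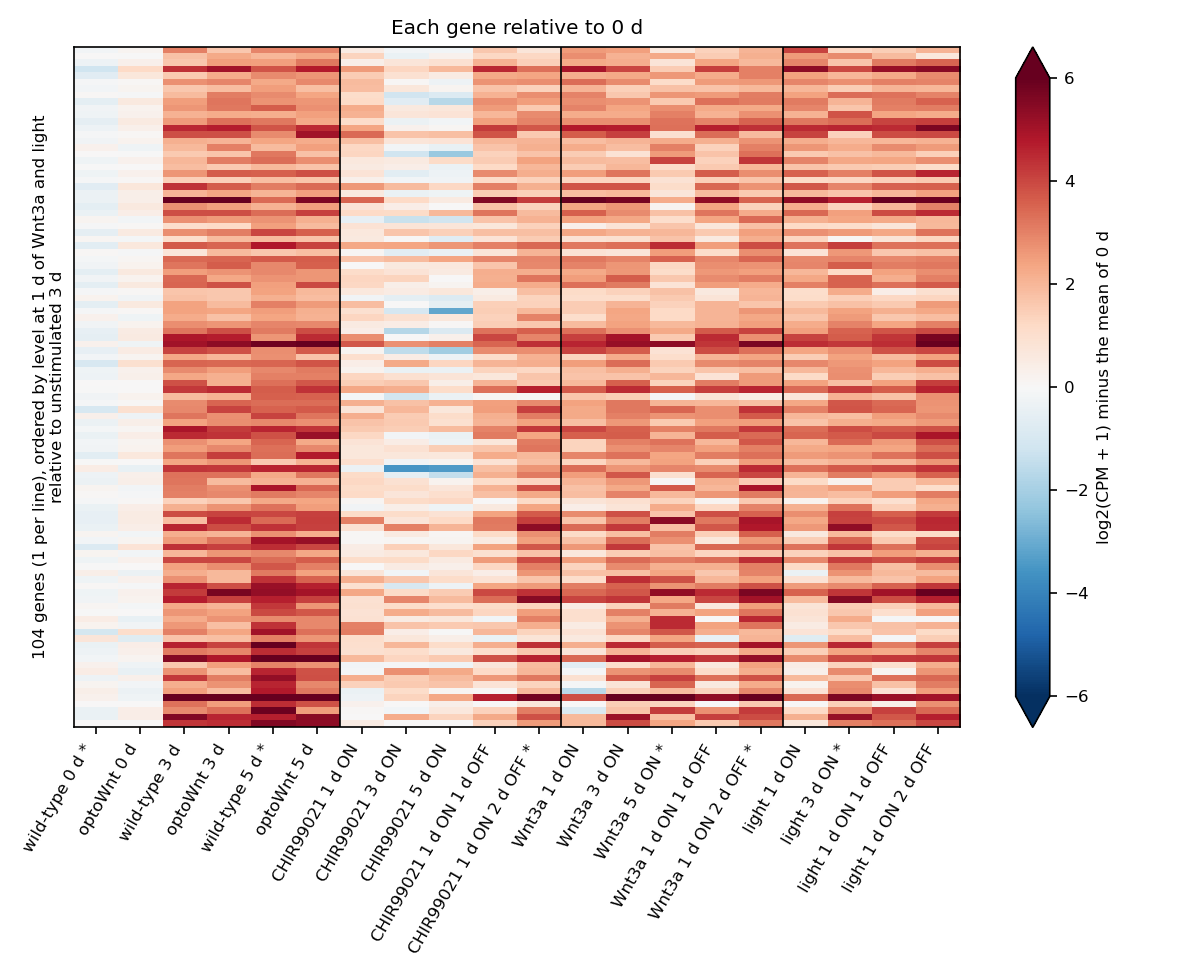
Each of the 104 genes (lines) in each library (columns), as log2(CPM + 1) minus the mean of its 0 d libraries, with colours saturating at -6 and 6. Lines are ordered from early genes at the top to late genes at the bottom, and asterisks mark the 6 low-scoring libraries. The CHIR99021 ON columns are the palest among the stimulated libraries, and the last CHIR99021 column, 2 d OFF, is closer in colour to the unstimulated 3 d columns.

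Wild-type and optoWnt cells were then set side by side. The level in wild-type minus that in optoWnt cells had a median of -0.40 at 0 d, -0.01 at 3 d and 0.17 at 5 d. Single genes differed more than these medians: 74 of 104 were lower in wild-type cells at 0 d, against 58.8% of all genes. Of these, 18 were lower by at least 1. At 5 d 64 were higher, against 42.9% of all genes, with 13 at least 1 higher and 6 at least 1 lower. Shares of all genes at the margin of 1 were not counted. The 0 d and 5 d libraries served to choose the genes, and the wild-type ones are low-scoring. In the late genes the median difference was 0.56 at 5 d, with 20 of 26 higher in wild-type cells. The genotype of these cells cannot be told apart from the low score of their library. ENSRNOG00000010326 showed the largest such gap, with 107 CPM in wild-type and 9.58 CPM in optoWnt cells at 5 d, and 12.2 and 17.4 CPM at 3 d.

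Some of the genes had few or no reads at 0 d or under CHIR99021, and 3 IDs are given here that were picked after their values were seen. ENSRNOG00000009660 had 0 reads in both 0 d libraries and in CHIR99021 3 d ON and 5 d ON, where a count of 0 allows up to 0.679 and 0.798 CPM. It had 45.6 and 40.9 CPM in wild-type and optoWnt cells at 5 d, and 18.5 and 20.6 CPM at 3 d. After CHIR99021 withdrawal it had 1.57 CPM at 1 d OFF and 4.92 CPM at 2 d OFF, below the 8.03 CPM of Wnt3a and the 15.3 CPM of light at the same profile. ENSRNOG00000046222 and ENSRNOG00000050105 had similar values, with a mean absolute difference of 0.18 on the log2 scale over the 20 libraries (Pearson's r = 0.987, given as a description). The largest difference was 0.88, in light 1 d ON, where they had 8.71 and 16.9 CPM. How the counting treated reads that match both IDs is not stated, so they may count as 1 gene, and their separate values are uncertain.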

How the data were processed

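The authors deposited whole-number counts of 3'-end reads per Ensembl gene, without normalization. Rows were tied to libraries through the well in each label. The submitters' processing notes name Bowtie2, Subread, featureCounts and build Rnor_6.0. Not given in the sources used here are their versions, the strand setting and the handling of reads with several matches, so overlapping genes and near-identical copies are uncertain.

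The 104 genes, and the lists and tests, were chosen with earlier results of these data known. CPM used library totals, with a pseudocount of 1 for log2 levels. Tests were quasi-likelihood fits in edgeR 4.0.16 under R 4.3.3, with limma 3.58.1, TMM scaling and filterByExpr, and Benjamini-Hochberg adjustment over all genes tested. A gene is called at an adjusted p under 0.05. DESeq2 1.42.0, RLE scaling, no filter and leaving out libraries were the alternatives. The fits were checked on simulated data. Each combination of cells, stimulus and time has 1 library, and nothing says that cultures were separate, so p-values measure the spread between these libraries, which may be technical. Limits for counts of 0 (3 counts) cover counting error only.

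Totals ranged from 696463 to 5935681 reads. None of the IDs matched a symbol (0 matches), so gene lists, markers and promoters were not used here. IDs are named for the highest levels, calls and the rule's limits, at most 2 per direction in a comparison. Others were picked after their values were seen, as stated.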

Additional observations from a re-analysis of the deposited data

How the results depend on the processing

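Every estimate of the named genes kept its direction under each alternative. CHIR99021 against Wnt3a and light: 8 genes were called by DESeq2 (0.436% of all genes), 11 with no low-count filter (0.482%), 4 without the low-scoring libraries (0.221%), and 0 to 2 with a library left out (2 without light 1 d ON 2 d OFF). Its unadjusted count of 48 ran from 22 (without CHIR99021 1 d ON) to 58. Change per day: 19 by DESeq2 (10.3% of all genes), 13 with no filter (3.68%), 5 without the low-scoring libraries (0.159%), 0 without the 5 d library, 10 with the 3 CHIR99021 libraries not used for choosing the genes (4.59%), and 0 to 12 with a library left out (12 without Wnt3a 3 d ON, 6.57%). Leaving out light 1 d ON 2 d OFF gave 11, near the 8.73% of all genes, and leaving out Wnt3a 1 d ON 2 d OFF gave 4. Leaving out light 1 d ON, light 3 d ON or light 1 d ON 1 d OFF gave 1 each. In the day 3 tests, leaving out the low-scoring libraries left 1 library per stimulated arm, so only medians are given. They were -0.36 for 3 d ON and 0.11 for 2 d OFF against unstimulated 3 d, and 0.52 for 2 d OFF against 3 d ON. The cause of the shifts between settings was not tested. Limits of 2 and 1.5 in place of 1.5 and 1 kept 58 genes. Choosing without the wild-type libraries, an alternative added after seeing the data like the unadjusted count, gave 206, among them the 104. In those 206, CHIR99021 was below both other stimuli at all 3 profiles in 51. RLE scaling changed no count of calls at an adjusted p. No paired analysis was possible because the labels carry no replicate numbers and no combination of cells, stimulus and time was repeated. Depth limits the genes under 10 reads, most of all in Wnt3a 1 d ON.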
